A study of Mus musculus with 6 samples.

Results

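The genes Hnrnpa3, Usp38, Zc3h7a, Cdk5rap1, Tmem267 and 3110070M22Rik held 6 of the 230 CG regions that the authors called as differentially methylated in hippocampal CA1 of mice lacking the DNA glycosylase NEIL3. A region was taken when it overlapped one of these genes or lay within 2 kb upstream of a listed transcription start. All 6 regions overlapped a gene body, so the upstream allowance added none. The genes were picked from the authors' deposited table with its methylation means known, so those means describe the regions and no test was run on them. All 6 genes held a region, Usp38 held 2, and Tmem267 and 3110070M22Rik shared 1.

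Whole-genome bisulfite sequencing gave the CpG methylation levels. The method reads unconverted cytosines as methylated and does not separate 5-methylcytosine from 5-hydroxymethylcytosine. The 3 control animals were wild type C57Bl6 males. The other 3 were Neil3-/- males (genotype N3 -/-) on the C57Bl6 background. Both groups were aged 3 to 6 months and came straight from the home cage with no intervention, and CA1 was cut from brain sections of 8 µm by laser microdissection. The tissue was not sorted, so each level averages over all cell types of the cut-out, and the labels do not say which part of Neil3 was deleted.

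The authors' deposited table gives 1 mean per group for each region, with no value per animal and no coverage. Depth is therefore unknown, no spread between animals could be given, and an exact permutation test over the 6 animals could not be made. Wild type was read as the first group from the sheet title alone. Methylation levels are fractions from 0 to 1, and differences are knockout minus wild type. None of 32 marker genes of CA1 pyramidal neurons, interneurons, astrocytes, oligodendrocytes, microglia and vessels held a region, so the table gives no level by which the tissue could be checked.

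Most mammalian genes that are active in many tissues start in a CpG island, a stretch dense in CpG dinucleotides that is normally kept free of methylation. CpGs inside gene bodies are in contrast usually methylated, and islands away from a known start can be methylated or not, depending on the cell type. The genes described here carry out housekeeping tasks in RNA handling, protein turnover and mitochondrial translation, or are little characterised. Their expression was not measured in these data.

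The sequences around the starts show where the called regions fell. RefSeq promoter windows (GRCm38.p6, 250 bases before to 50 bases after a start) were found for all 6 genes, 8 windows in all. Printed here is 1 window for each gene with a region across, or within 0.5 kb of, its most upstream start. That of 3110070M22Rik lay just outside its region. They are written 5′ to 3′ on the strand of the gene, with CpG dinucleotides in capitals.
Hnrnpa3, chr2:75659009-75659308, plus strand: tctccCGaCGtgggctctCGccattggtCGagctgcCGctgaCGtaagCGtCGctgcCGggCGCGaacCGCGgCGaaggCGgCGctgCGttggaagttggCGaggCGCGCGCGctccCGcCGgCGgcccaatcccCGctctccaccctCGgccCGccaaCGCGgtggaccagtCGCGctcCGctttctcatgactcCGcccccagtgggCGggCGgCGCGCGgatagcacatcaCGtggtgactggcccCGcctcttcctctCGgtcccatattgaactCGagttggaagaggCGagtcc
Usp38, chr8:81014857-81015156, minus strand: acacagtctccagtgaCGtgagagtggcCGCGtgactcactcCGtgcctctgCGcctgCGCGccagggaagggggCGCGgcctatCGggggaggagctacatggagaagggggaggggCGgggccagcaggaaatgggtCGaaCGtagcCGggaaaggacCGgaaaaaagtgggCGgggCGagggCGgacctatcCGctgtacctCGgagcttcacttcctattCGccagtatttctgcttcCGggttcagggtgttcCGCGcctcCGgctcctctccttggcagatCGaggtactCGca
Tmem267, chr13:119487836-119488135, plus strand: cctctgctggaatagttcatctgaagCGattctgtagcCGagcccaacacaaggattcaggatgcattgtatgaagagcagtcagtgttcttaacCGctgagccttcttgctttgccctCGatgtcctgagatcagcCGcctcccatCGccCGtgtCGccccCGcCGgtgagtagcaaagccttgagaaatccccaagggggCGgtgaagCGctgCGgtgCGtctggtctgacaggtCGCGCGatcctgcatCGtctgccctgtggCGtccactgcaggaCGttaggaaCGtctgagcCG
3110070M22Rik, chr13:119488335-119488634, minus strand: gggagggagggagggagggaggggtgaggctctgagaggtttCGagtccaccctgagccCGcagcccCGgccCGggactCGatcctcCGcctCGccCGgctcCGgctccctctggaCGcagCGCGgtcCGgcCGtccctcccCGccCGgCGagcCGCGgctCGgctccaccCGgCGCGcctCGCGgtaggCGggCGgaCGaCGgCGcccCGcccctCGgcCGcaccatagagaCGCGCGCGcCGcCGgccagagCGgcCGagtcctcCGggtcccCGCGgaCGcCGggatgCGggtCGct

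The window of Hnrnpa3 held 44 CpG dinucleotides, and 2.25% of 32851 mouse promoter windows held as many or more. Only the last 82 bases of it, with 7 CpGs, lay inside the called region, which ran on into the gene. The window of Usp38 held 27 CpGs, a number reached by 15.5% of all windows, and lay wholly inside its region. The upstream window of Tmem267 held 22 CpGs, reached by 23.1% of all windows, and also lay wholly inside its region. The window of 3110070M22Rik held 48 CpGs, reached by 1.22% of all windows, and began 63 bp beyond the end of that region. A second window of Tmem267, at 119488223 to 119488522, held 50 CpGs, a number reached by 0.855% of all windows. Of these CpGs 7 fell in the region. The other 250 bases of that window lay outside the region. The median over all windows was 7 CpGs and the upper quartile 20.

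For Zc3h7a and Cdk5rap1 the promoter windows lay far from the called region. The 2 windows of Zc3h7a held 33 and 31 CpGs, reached by 8.56% and 10.6% of all windows. They lay 31982 and 32034 bp from its region. That of Cdk5rap1 held 19 CpGs, reached by 28.1% of all windows, and lay 17527 bp away from its region.

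Motifs were searched on both strands as exact letters, and no motif contains the letters of another. GGGCGG, the GC box bound by SP factors, occurred in all 8 windows of the 6 genes and in 35.7% of all mouse windows. GGGCGG itself holds a CpG, and the 8 windows held 19 to 50 CpGs against a median of 7 over all windows. No comparison with windows of like CpG number was made, so nothing is read from this share. The 8 windows are not separate sequences, since those of Zc3h7a share 248 bases and the second of Tmem267 shares 188 with that of 3110070M22Rik, so matches there are counted more than once. TATAAA occurred in none of the 8 and in 13.6% of all windows. CCAAT occurred in 3 of the 8 windows, those of Hnrnpa3 and Zc3h7a, against 37.4% of all windows. TGACG occurred in 2 of the 8, those of Hnrnpa3 and Usp38, against 20.8%. CCGGAA, the core of ETS sites, occurred in 2 of the 8, those of Usp38 and Cdk5rap1, against 14.9%. CACGTG, an E-box, occurred in 1 of the 8, that of Hnrnpa3, against 7.15%. This match was the only one in that window that lay inside the called region. In the printed window of Usp38 all matches lay inside the region, with 3 GC boxes, 2 ETS cores and 1 TGACG. Motif matches describe the sequence, and factor binding was not measured.

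By the group means, 5 of the 6 regions had more methylation in the knockout and 1 had less. Over all 230 regions 29.6% were higher and 70.4% lower, and over the 112 regions outside chromosome 8, the chromosome of Neil3, 55.4% were higher. Since the genes were chosen from this same contrast, nothing is read from the count. The deposited differences gave the same 5 and 1, beside 29.1% higher over all regions. The median of the 6 differences of means was 0.08, against -0.46 over all regions and 0.20 over the 108 other regions outside chromosome 8. The largest q-value among the 6, from the authors' deposited table, was 0.000219.

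**Figure D1:**
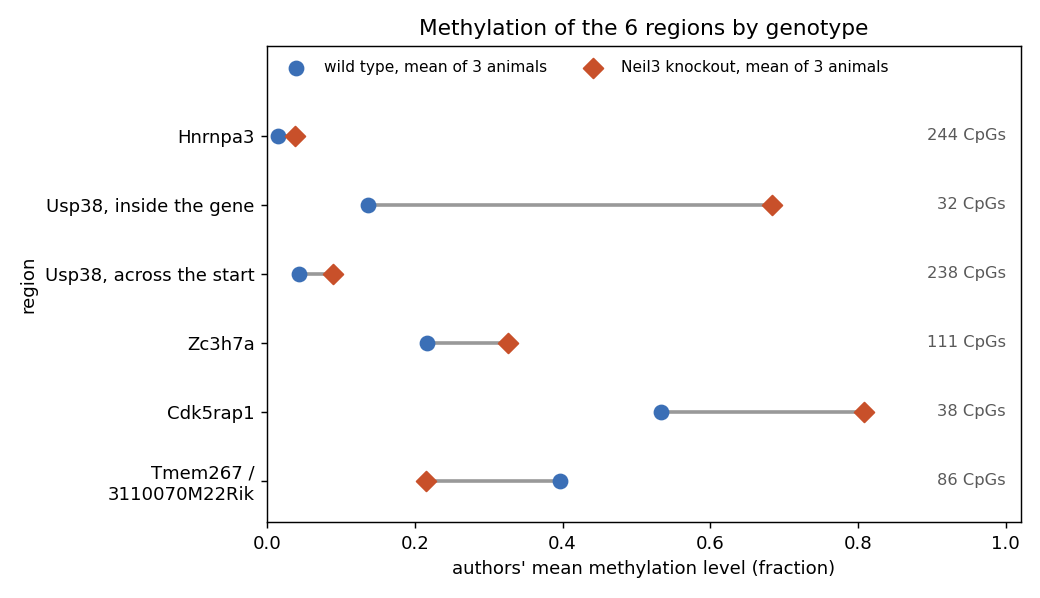
Authors' mean methylation level (fraction, x axis) of each of the 6 regions in wild type (blue circles) and Neil3 knockout (red diamonds), each the mean of 3 animals without a spread, with the number of CpGs listed for the region at the right. The regions across the starts of Hnrnpa3 and Usp38 were under 0.1 in both genotypes, the region inside Usp38 had 0.136 in wild type against 0.683 in the knockout, and the region of Tmem267 and 3110070M22Rik was the only one of the 6 that was lower in the knockout.

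Hnrnpa3 encodes a nuclear ribonucleoprotein of the A/B family that binds messenger RNA, and lies on chromosome 2 at 75659261 to 75669407 (mm10). Its region, at 75659226 to 75661366, ran from 34 bp before to 2105 bp after the most upstream listed start and contained 4 of the 5 listed starts. RefSeq bounds the gene from 75659105, and by that bound the region lay inside the gene. Over its 244 CpGs wild type had an authors' mean of 0.0144 and the knockout one of 0.0371. By these means both genotypes were almost free of methylation here, and the knockout mean was 2.58 times that of wild type. The difference of the means was 0.0227, the smallest in size of all 230 regions. The authors' deposited difference for the same region was 0.321, which is 14.1 times as large, and the authors' deposited table gives it q = 1.22e-10. A value of 0.321 exceeds the knockout mean of 0.0371, so it cannot be the difference of these means. The long noncoding RNA gene Gm39859 ended 290 bp before the region and did not overlap it.

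Usp38 encodes a ubiquitin-specific protease, an enzyme that takes ubiquitin off other proteins, and lies on chromosome 8 at 80980733 to 81014928 on the minus strand. It carried a pair of regions 39 bp apart with 270 CpGs in all. The first, at 81014079 to 81015998, ran from 1070 bp before to 848 bp after the most upstream start and contained both listed starts. Over 238 CpGs wild type had an authors' mean of 0.0436 and the knockout one of 0.0885, a difference of 0.0449. The authors' deposited table gives a difference of 0.320 for it, with q = 6.37e-14. Here too the deposited difference exceeds the knockout mean. Hnrnpa3 and this region of Usp38 were the only regions of the 230 in which both genotypes had a mean under 0.1. No deposited difference was under 0.101 in size. Both means could therefore be under 0.1 only where the deposited difference did not match them, so nothing further is read from this.

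The other region of Usp38 lay inside the gene, from 888 to 1241 bp after the most upstream start, at 81013686 to 81014040. Over 32 CpGs wild type had an authors' mean there of 0.136 and the knockout one of 0.683, and the authors' deposited table gives q = 2.28e-22. The knockout mean was 5.02 times that of wild type. The difference of 0.547 was the largest of the 6 regions and matched the deposited one. By the means, Usp38 thus differed far more in the short region past the starts than in the long region across them. Weighted by the number of CpGs, the pair together had a level of 0.0545 in wild type, against 0.159 in the knockout, a difference of 0.104. The deposited differences, weighted in the same way, gave 0.347, which is larger than the knockout level of 0.159 itself. The value of 0.347 can therefore not be a difference of these levels.

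Usp38 lay 27.4 Mb from Neil3, away from the stretch of chromosome 8 around that gene where most regions were lower in the knockout. Of the 118 regions on chromosome 8, 6 were higher in the knockout, and the pair at Usp38 made up 2 of these 6. Only 3 regions of the chromosome were more than 20 Mb from Neil3, namely the pair at Usp38 and another at 20557481 to 20557946, where the authors' mean was lower in the knockout, at 0.276, than the 0.506 of wild type.

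Zc3h7a encodes a protein with zinc fingers of the CCCH type, a class that binds RNA, and lies on chromosome 16 at 11136592 to 11176393 on the minus strand. Its region, at 11143681 to 11144310, was 32.1 kb into the gene from the most upstream start. Of 18 listed starts none was inside the region, and the nearest, an internal start at 11141907, lay 1775 bp further along the gene. Over 111 CpGs wild type had an authors' mean of 0.216 and the knockout one of 0.326, and the authors' deposited table gives q = 1.98e-19. The difference of 0.110 was the third smallest deposited difference in size of all 230 regions, in a region with 17.6 listed CpGs per 100 bp, the 6th densest of the table. RefSeq annotates no other gene within 2 kb of it.

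Cdk5rap1 encodes an enzyme that adds a methylthio group to mitochondrial transfer RNAs, and lies on chromosome 2 at 154335380 to 154373010 on the minus strand. Its region, at 154354541 to 154355143, was 17.9 kb into the gene. None of its 7 listed starts fell inside the region, and the nearest, an internal start at 154354344, lay 198 bp further along the gene. Over 38 CpGs wild type had an authors' mean of 0.533 and the knockout one of 0.808, a difference of 0.275, with q = 2.74e-08 from the authors' deposited table. The wild type and the knockout level were both the highest of the 6 regions, and the density of 6.31 listed CpGs per 100 bp was the lowest. Hnrnpa3 and Cdk5rap1 held 2 of the 4 regions of chromosome 2, all 4 of which were higher in the knockout.

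Tmem267, which encodes a little-studied transmembrane protein, and 3110070M22Rik, annotated by RefSeq as a long noncoding RNA, start on opposite strands of chromosome 13 and overlap at their 5′ ends. The table of the authors bounds them at 119488039 to 119611059 and 119487252 to 119488384. Their shared region, at 119487604 to 119488272, ran from 434 bp before to 233 bp after the most upstream start of Tmem267. It lay wholly inside 3110070M22Rik, from 112 to 779 bp after the most upstream start of that gene. Over 86 CpGs wild type had an authors' mean of 0.396 and the knockout one of 0.215, a difference of -0.181. The authors' deposited table gives a difference of -0.246 for it, with q = 0.000219. The region was partly methylated in both genotypes, unlike those across the starts of Hnrnpa3 and Usp38. The gene 4833420G17Rik ended 1485 bp before the region and did not overlap it. 3110070M22Rik had the highest GC content of the 36 genes in the authors' gene table, 57.8%, against a median of 42.4%.

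**Figure D2:**
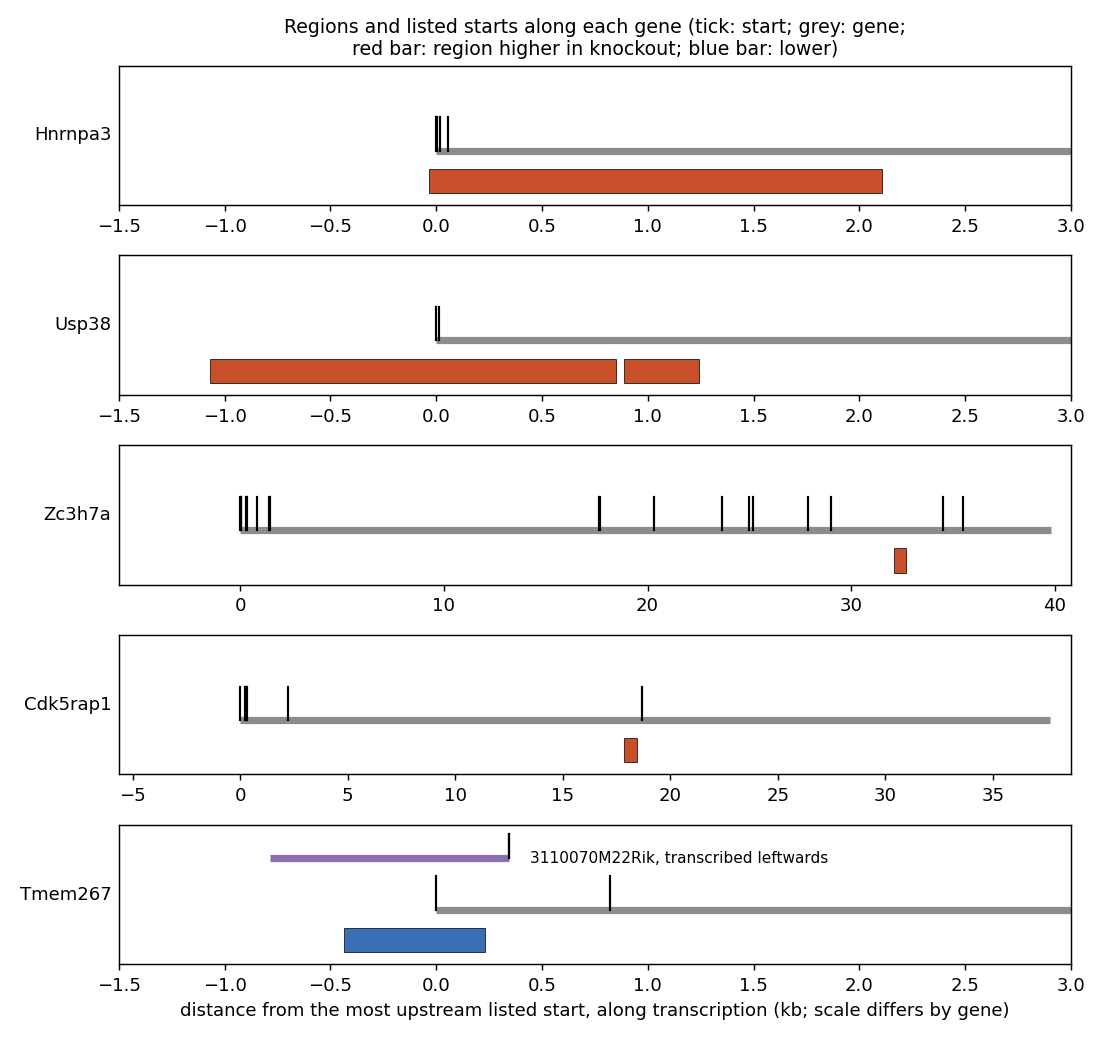
Position of the regions (bars, red where the knockout mean was higher and blue where it was lower) and of the listed starts (ticks) along each gene (grey line), in kb from the most upstream listed start in the direction of transcription. The scale differs by gene, and Hnrnpa3, Usp38 and Tmem267 are drawn to 3 kb only, which leaves out a further start of Hnrnpa3 and one of Tmem267. Regions of Hnrnpa3, Usp38 and Tmem267 lay across a start, and those of Zc3h7a and Cdk5rap1 lay 32.1 and 17.9 kb into the gene.

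The working description of these genes as carrying regions at their starts therefore held for part of them. A listed start fell inside 3 of the 6 regions, those of Hnrnpa3, Tmem267 with 3110070M22Rik, and the longer one of Usp38. A start lay within 0.5 kb of 4 regions, counting the internal start of Cdk5rap1, within 1 kb of 5 and within 2 kb of all 6. At the upstream starts of Zc3h7a and Cdk5rap1 no region was listed.

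The 3 regions that contained a start were also the 3 in which the authors' deposited difference and the difference of the group means did not match within 0.001. Over all 230 regions 17 did not match, or 7.39%. In all 3 the deposited difference was larger in size than that of the means and had the same sign. The deposited difference put Hnrnpa3 and the longer region of Usp38 at 0.321 and 0.320, near the 0.275 of Cdk5rap1. By the means they were the 2 smallest differences of the whole table. Among the 213 regions that matched, no difference of means was under 0.101 in size, so only a region without a match could be. By the deposited differences the median over the 6 regions was 0.30 in place of 0.08. No source used here says how the deposited difference was computed, so both are given. At Hnrnpa3 and the longer region of Usp38 it exceeds the knockout means of 0.0371 and 0.0885. There it is therefore not a difference of the mean levels, and the median of 0.30 includes both of these values. The 17 regions that did not match had a median of 65 CpGs, and the 213 that matched had a median of 24. Whether the number of CpGs plays a part in the mismatch was not tested.

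**Figure D3:**
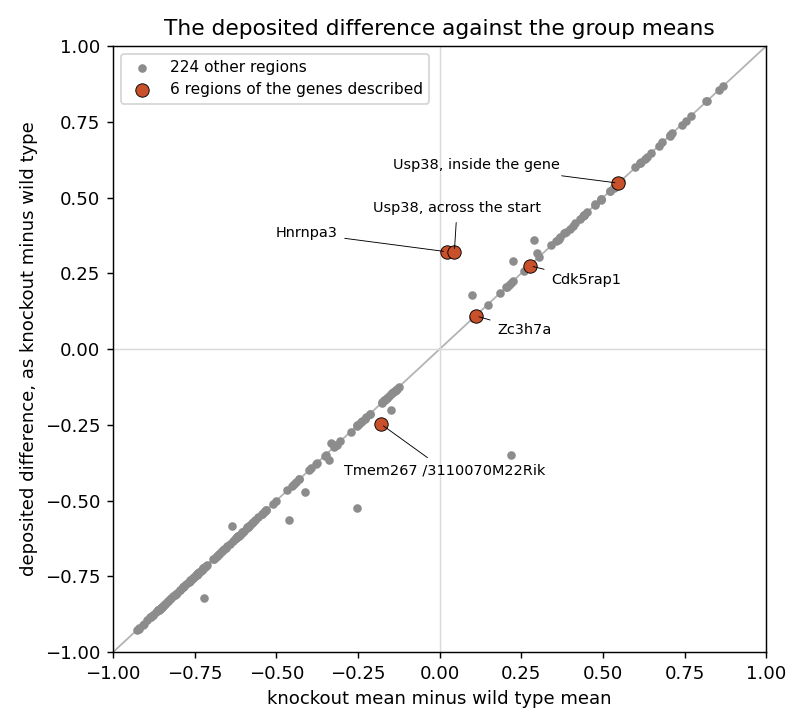
Deposited difference (y axis, turned to knockout minus wild type) against the knockout mean minus the wild type mean (x axis), both as fractions, for the 6 regions (red) and the 224 other regions (grey), with the line of equality. The regions across the starts of Hnrnpa3 and Usp38 sit far above the line, at 0.321 and 0.320 on the y axis and 0.0227 and 0.0449 on the x axis, and those of Zc3h7a, Cdk5rap1 and inside Usp38 sit on it.

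By their medians the 6 regions were rich in CpGs, given here as a description since the choice of genes had the CpG numbers in view. This did not hold for each of them. The region inside Usp38 had 32 CpGs, and that of Cdk5rap1 had 38 at 6.31 per 100 bp. Their median was 98.5 listed CpGs, against 26 over the 224 other regions and 34 over the 108 other regions outside chromosome 8. Of the 3 regions in the table with at least 200 CpGs, those of Hnrnpa3 and Usp38 were 2. The density had a median of 11.9 listed CpGs per 100 bp, from 6.31 to 17.6, against 5.27 over the other regions and 8.43 over those outside chromosome 8. The listed numbers may count cytosines on both strands, which was not tested. They were even in 145 regions and odd in 85. In 6 regions of the table at least 300 bases of RefSeq promoter sequence lay inside. There the listed density of the whole region was 1.38 to 2.35 times that of CpG dinucleotides in the part with sequence. At Usp38 the ratio was 1.38, and at Tmem267 it was 1.55.

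**Figure D4:**
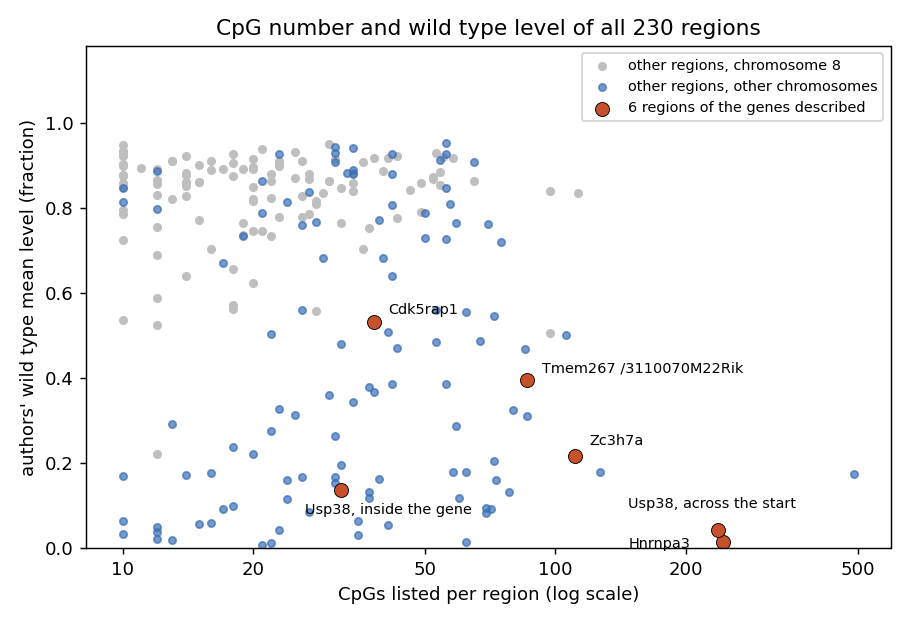
CpGs listed per region (x axis, log scale) and the authors' wild type mean level (y axis, fraction) of the 6 regions (red), the other regions of chromosome 8 (grey) and the other regions elsewhere (blue). The regions across the starts of Hnrnpa3 and Usp38, with 244 and 238 CpGs and wild type means of 0.0144 and 0.0436, lie at the lower right. A region of chromosome 17 with 490 CpGs and a wild type mean of 0.175 lies further right. Wild type means under 0.1 were listed for 23 of the 230 regions.

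Among the other genes of the authors' gene table, 6 regions lay within 0.5 kb of a listed start. Their wild type means ran from 0.0831 to 0.570 and their deposited differences all matched the means. The lowest of these wild type means, that of the chemokine gene Cxcl1, was above those of Hnrnpa3 and the longer region of Usp38. The nearest region of the table outside these genes was 5.02 Mb away at Zc3h7a, where wild type had an authors' mean of 0.0389 and the knockout 0.779. It was 14.4 Mb at Usp38, 22.8 Mb at Cdk5rap1, 28.4 Mb at Hnrnpa3 and 53.1 Mb at Tmem267 and 3110070M22Rik. No region therefore lay close to the limit of the rule.

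Lists of genes related to 4 of the genes were counted by RefSeq bounds. Of 24 genes for heterogeneous nuclear ribonucleoproteins and related proteins only Hnrnpa3 held a region, and of 50 ubiquitin-specific proteases only Usp38. Of 27 genes with CCCH zinc fingers only Zc3h7a did, and of 19 genes that modify or process transfer RNA only Cdk5rap1. Each list contains the gene it was built around, so its count of 1 was fixed in advance. Over the whole annotation 69 of 49599 genes, or 0.139%, held a region, a share at which lists of this size would mostly hold none, so nothing is read from the counts. With 2 kb added on each side of the genes, Usp29, a protease gene that starts beside the imprinted gene Peg3, was the only addition, 296 bp from a region whose authors' mean was 0.508 in wild type against 0.349 in the knockout.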

How the data were processed

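Bisulfite libraries of DNA fragments of about 250 bp were sequenced on an Illumina instrument, per the labels' protocols. BSMAP and GRCm38 (mm10) are named in the submitters' processing notes. No source used here names the region caller or its coverage minimum. Methylation fractions were deposited by the authors as group means, and a q-value was deposited for each region. It also holds a signed difference of unstated computation, a score deposited by the authors. The GC content in percent is from the deposited gene table.

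Differences were computed as knockout mean minus wild type mean, with the deposited difference as an alternative. Bounds are printed as deposited. At the 2 region starts covered by RefSeq sequence, positions counted from 0, so lengths are end minus start. Strands were inferred from the listed starts. Placement code was tested on simulated data. Python 3.11.15 with pandas 2.3.3 was used. Named were all 6 genes, their regions, neighbours within 2 kb, nearest regions and list genes with a region, and other genes were named after their values were seen. Members and lists were chosen with earlier results of these data known.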

Additional observations from a re-analysis of the deposited data

How the results depend on the processing

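No paired analysis was possible because only group means were deposited, and for the same reason no animal could be left out in turn. Of 37 alternative values, 32 stayed within 1.5 times the main value, 5 moved further and 0 changed sign. For counts, that tally compares numbers and not shares. The other regions higher in the knockout were 63 of 224 in all (28.1%) and 59 of 108 outside chromosome 8 (54.6%). Regions at a start went from 4 within 0.5 kb to 6 within 2 kb, which also counted as within 1.5 times. Upstream windows of 0.5, 1 or 5 kb, RefSeq bounds, q under 0.01 and at least 20 CpGs each gave the same 6 regions. So did at least 50% of a region inside the gene or inside the 2 kb upstream of a start. The longer region of Usp38, with 849 of 1919 bases in the gene, met this only through the upstream stretch. All 6 overlapped a gene body, their largest q-value was 0.000219 and their fewest CpGs 32. The narrower windows, the q limit and the CpG limit therefore could not remove a region, and their unchanged values are no sign of stability. With a difference of means of at least 0.2, 2 regions were left (Cdk5rap1 and inside Usp38), 2 of them higher. The median difference was then 0.411, a rise fixed in advance because this setting takes out the smaller differences. With the deposited difference the median was 0.298 in place of 0.0774, and the cause was not tested. The 0.298 includes the values of Hnrnpa3 and the longer region of Usp38, which exceed their knockout means. The median density of the other regions was 8.43 CpGs per 100 bp outside chromosome 8 against 5.27 in all. Depth is unknown, so low levels such as 0.0144 in Hnrnpa3 carry no interval, and reads missing from either genotype cannot be told apart from a change in methylation.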
